A study of Mus musculus with 18 samples.

Results

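The mir-101 family in the mouse consists of mir-101a, mir-101b and mir-101c, listed as mmu-mir-101a, mmu-mir-101b and mmu-mir-101c and making up 3 of the 1006 miRNA entries in the deposited table of read counts. The 3 entries were taken by name, and they were picked because mir-101a and mir-101b differed from control in opposite directions in the knockouts. Their genotype differences are therefore given as a description, and the calls printed for them are not read as tests. The 18 small RNA libraries came from Baf3 cells, an established pro-B line of the mouse that depends on interleukin-3 for growth. All cells, controls included, carried fluorescent reporters of altered miR-15a and miR-16, a stably integrated Cas9 and 1 guide RNA, and had been selected with puromycin. In control cells the guide cut Rag1, a gene of antigen receptor recombination that takes no part in miRNA production. In SAFB knockout cells it cut both Safb and Safb2, and in ERH knockout cells it cut Erh. Each genotype was made with 2 guides, giving 6 polyclonal populations, and every population was sequenced once in each of the 3 batches named in the labels, so that n = 6 libraries per genotype. Knockout cells were sorted for derepression of the miR-15a reporter and regrown, whereas the labels do not state how the control populations were sorted. Each population is a mixture of edited cells and not a clone, the 3 libraries of a population share its editing, and the cut genes themselves are not measured by small RNA reads.

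miRNAs are cut from hairpins in longer transcripts by the Microprocessor, a complex of Drosha and DGCR8, and then by Dicer. ERH and the SAFB proteins act with the Microprocessor on poorly suited hairpins that lie beside a good one in the same transcript, a process called cluster assistance. miR-101 is an old, broadly expressed family best known for repressing Ezh2, the histone H3 lysine 27 methyltransferase of Polycomb repressive complex 2, and the loss of miR-101 in tumours is a known route to high EZH2.

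The mature sequences are shown because the 3 entries are told apart by very few bases. They are RefSeq sequences on GRCm38.p6, matched for all 3 entries, written 5′ to 3′ with the seed, bases 2 to 8, in capitals.
miR-101a-3p: uACAGUACugugauaacugaa
miR-101b-3p: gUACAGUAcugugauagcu
miR-101c: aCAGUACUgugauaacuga
The annotated 5′ end of miR-101b-3p lies 1 base upstream of that of miR-101a-3p, and the annotated 5′ end of miR-101c lies 1 base downstream of it. The 3 annotated seeds are thus 3 registers of 1 stretch and not 3 unrelated seeds. Over the 18 bases that miR-101a-3p and miR-101b-3p have in common, 17 were identical, and the remaining position was A16G, counted from 1 at the 5′ end of miR-101a-3p. The whole annotated miR-101c, 19 bases, was identical to bases 2 to 20 of miR-101a-3p. Among the 1738 mature sequences of the RefSeq table, 2 held the miR-101c sequence, miR-101c itself and miR-101a-3p. A read of those bases fits both mature sequences, and how the authors assigned reads that fit several entries is not given in the sources used here. The mir-101c counts, and to a lesser degree those of mir-101a, are uncertain for this reason. Over its 21 bases miR-101a-3p matched the mir-101b hairpin at 20, so mir-101a and mir-101b may share reads where 1 mismatch was allowed. Whether mismatches were allowed is not given in the sources used here. Between miR-101b-3p and miR-101c the compared 17 bases differed by G17A, counted from the 5′ end of miR-101b-3p.

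The opposite arms of the hairpins were less alike, with 17 of 22 bases identical, the substitutions from miR-101a-5p to miR-101b-5p being A3G, C11U, A12G, G15A and U17C.
miR-101a-5p: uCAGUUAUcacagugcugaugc
miR-101b-5p: uCGGUUAUcaugguaccgaugcu
Each entry in the count table is named for a hairpin, so the arms cannot be separated in the values below. No other mature miRNA of the table shared bases 2 to 8 with any of these arms. Bases 2 to 7 of miR-101a-3p were shared with miR-144-3p, and those of miR-101b-3p with miR-582-5p.

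The hairpins of mir-101a and mir-101b are shown, with the mature arms in capitals, because they come from transcripts of different kinds, and the mir-101c hairpin was not used here.
mir-101a: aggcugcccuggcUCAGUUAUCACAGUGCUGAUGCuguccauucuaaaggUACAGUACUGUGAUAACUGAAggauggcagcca
mir-101b: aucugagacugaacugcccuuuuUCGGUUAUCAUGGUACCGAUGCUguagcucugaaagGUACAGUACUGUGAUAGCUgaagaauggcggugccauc
The mir-101a hairpin has 83 bases and lies at chr4:101346945-101347027 on the minus strand (GRCm38). In the GENCODE annotation it falls in exon 2, the last, of a transcript of the long noncoding RNA gene E130102H24Rik, on the same strand, while the other annotated transcript of that gene does not reach it. The mir-101b hairpin has 97 bases and lies at chr19:29135279-29135375 on the plus strand, in an intron of both overlapping transcripts of Rcl1, a gene for a nucleolar protein of ribosomal RNA processing, on the same strand. The Mir101c gene lies at chr9:3038669-3038743 on the minus strand, in no annotated gene, 352 bases from Gm10715. None of the 3 had another annotated miRNA gene on the same strand within 10 kb. The nearest one was 2789.1 kb away for mir-101a, 4021.7 kb for mir-101b and 1232.4 kb for mir-101c, so that none of the 3 has an annotated hairpin beside it. RNAfold gave the mir-101a hairpin a minimum free energy of -47.0 kcal/mol, or -56.6 per 100 bases, and 6.4% of the 1005 hairpins in the RefSeq table were more stable per base. The mir-101b hairpin had -39.6 kcal/mol, or -40.8 per 100 bases, close to the median hairpin of the table, -40.6, with 49.2% more stable. By this measure mir-101a is among the stable hairpins and mir-101b is a typical one.

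The libraries held 2699323 to 4470073 miRNA counts each, with synthetic spike-in RNAs at 0.165% to 0.366% of all counts. Of the 1006 entries, 273 passed the filter on low counts, the 3 mir-101 entries among them. Levels in counts per 1000000 counts of a library (CPM) were first read for marker miRNAs of cell types. The 5 haematopoietic markers summed to 139650.0 to 158401 CPM in control, 146057 to 168050.0 in SAFB and 145190.0 to 175103 in ERH libraries, most of it mir-142a. These sums are shares of the library total, while the calls that follow are from the edgeR fit with TMM scaling. The haematopoietic markers did not move together: edgeR called mir-223 and mir-181a higher and mir-150 lower in SAFB cells, and mir-181a higher and mir-142a, mir-150 and mir-155 lower in ERH cells. With total counts mir-142a, at 0.073 on the log2 scale, and mir-155, at -0.070, were not called in ERH cells. With spike-in counts mir-181a in SAFB cells and mir-142a, mir-150 and mir-155 in ERH cells were not called. The liver miRNA mir-122 reached at most 40.8 CPM, neuronal mir-124 at most 2.19, muscle mir-1a with mir-133a at most 5.48, erythroid mir-451a with mir-144 at most 2.27 and mesenchymal mir-143 with mir-145a at most 23.8, while 5 epithelial miRNAs summed to 128 to 217. mir-126a, known from endothelium and from blood progenitors, stood at 3694 to 4336 CPM in control, 3049 to 3502 in SAFB and 3320.03 to 3875 in ERH libraries. Of these other markers, edgeR called mir-375, mir-200a, mir-200c and mir-143 higher and mir-126a lower in SAFB cells. For ERH cells it called mir-375 and mir-122 higher and mir-126a lower. mir-375 was near the floor, at 0 to 30 counts in a library, so its calls rest on few counts. Its mean TMM-scaled level was 0.28 CPM over control, 2.23 CPM over SAFB and 4.80 CPM over ERH libraries. It thus passed the low-count filter through the knockout libraries. Over all tested entries, 56.0% were called in SAFB and 53.8% in ERH cells. With spike-in counts mir-200a, mir-200c and mir-143 in SAFB cells and mir-126a in ERH cells were not called. With total counts mir-200b was also called higher in both knockouts, and mir-200a in ERH cells. The part of the marker miRNAs in the mir-101 values was not tested.

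Levels of a miRNA are given below as CPM after scaling of the libraries by trimmed mean of M-values (TMM). Read counts of a library depend on the ligation of each small RNA, so a level compares libraries more safely than it compares miRNAs. In control libraries mir-101b was the more abundant entry. Its level there was 10292 CPM in the lowest library, 11312 CPM in the median and 12323 CPM in the highest, a mean of 11279 ± 760 CPM (SD, n = 6). mir-101a in the same libraries ran from 6975 CPM over a median of 7799 CPM to 8592 CPM, a mean of 7773 ± 647 CPM (SD, n = 6). No control library had as much mir-101a as the control library with the least mir-101b. mir-101c was far below both, at 23.5 CPM in the lowest, 27.4 CPM in the median and 34.2 CPM in the highest control library, a mean of 28.0 ± 4.82 CPM (SD, n = 6). Among the 273 tested entries, ranked by mean CPM in control libraries, mir-101b stood in place 17, mir-101a in place 20 and mir-101c in place 136. Both main entries thus belong to the abundant miRNAs of Baf3 cells. The mir-101a and mir-101b counts were never below 21532 and 22245 in a library, while mir-101c had 64 to 183 counts, which leaves it a wide counting error.

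In SAFB knockout libraries mir-101a was higher and mir-101b slightly lower than in control, and the entries came level with each other. mir-101a ran from 9583 CPM over a median of 10192.5 CPM to 11413 CPM, a mean of 10440.5 ± 759.9 CPM (SD, n = 6). All 6 SAFB libraries lay above all 6 control libraries for mir-101a. mir-101b ran from 9127 CPM over a median of 10037 CPM to 11155 CPM, a mean of 10001 ± 737 CPM (SD, n = 6). Its SAFB and control libraries overlapped. mir-101c was at 31.2 CPM in the lowest, 41.2 CPM in the median and 49.6 CPM in the highest SAFB library, a mean of 40.6 ± 6.40 CPM (SD, n = 6), and its lowest SAFB library fell within the control range.

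In ERH knockout libraries the order of the main entries was turned around, with mir-101a above mir-101b. mir-101a ran from 7785 CPM over a median of 9659 CPM to 11717 CPM, a mean of 9713 ± 1306 CPM (SD, n = 6). It varied most here: 5 of the 6 ERH libraries lay above every control library and the lowest, of guide 2 in batch 3, fell within the control range. mir-101b ran from 6543 CPM over a median of 7430 CPM to 8066 CPM, a mean of 7417 ± 530 CPM (SD, n = 6). Every ERH library lay below every control library and below every SAFB library for mir-101b. mir-101c was at 36.4 CPM in the lowest, 42.6 CPM in the median and 45.4 CPM in the highest ERH library, a mean of 42.0 ± 3.36 CPM (SD, n = 6), above all control libraries.

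**Figure D1:**
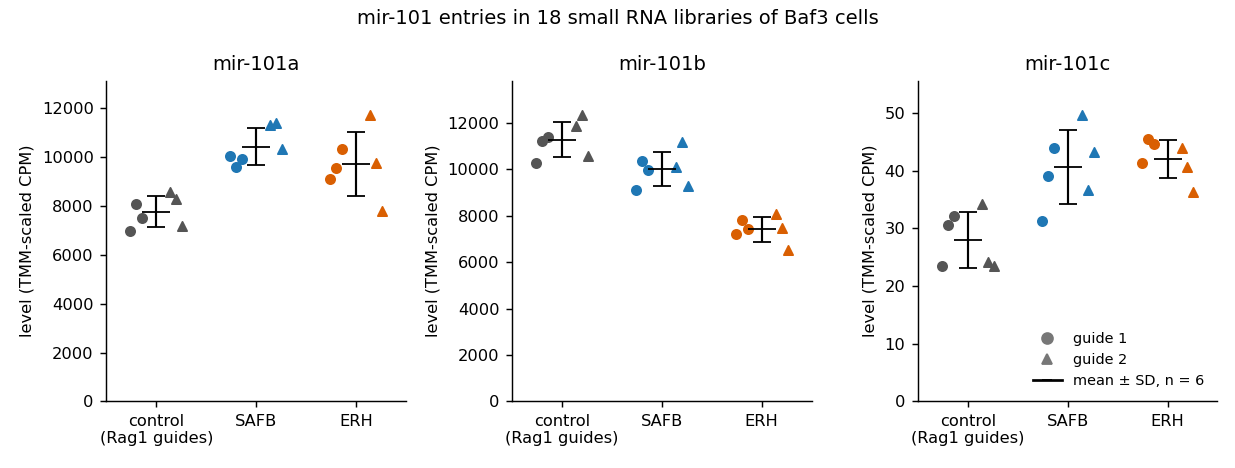
Level of each mir-101 entry in TMM-scaled CPM (linear axes from 0) in the 6 control, 6 SAFB and 6 ERH libraries; circles are guide 1, triangles guide 2, and bars the mean ± SD. mir-101a is lowest in control (mean 7773 CPM), mir-101b is lowest in ERH (mean 7417 CPM), and mir-101c is lowest in control (mean 28.0 CPM).

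The order of the genotypes thus differed between the entries. For mir-101a it was control, then ERH, then SAFB, and the ERH libraries overlapped with those of both neighbours. For mir-101b it was ERH, then SAFB, then control, and only the ERH libraries stood clear of their neighbour. For mir-101c it was control, then SAFB, then ERH, with overlap between each pair of neighbours, though control and ERH did not overlap.

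The fitted differences put these levels on a log2 scale. In the edgeR fit over all 273 entries, SAFB minus control was 0.43 (SE 0.080) for mir-101a, -0.17 (SE 0.062) for mir-101b and 0.54 (SE 0.13) for mir-101c. ERH minus control was 0.32 (SE 0.079) for mir-101a, -0.60 (SE 0.063) for mir-101b and 0.59 (SE 0.13) for mir-101c. In linear terms, mir-101a stood at 134% of control in SAFB and 125% in ERH cells, mir-101b at 88.7% and 65.8%, and mir-101c at 145% and 150%. ERH minus SAFB was -0.10 (SE 0.079) for mir-101a, -0.43 (SE 0.063) for mir-101b and 0.049 (SE 0.13) for mir-101c. Under TMM scaling mir-101b stood in ERH cells at 74.2% of its SAFB level, whereas with spike-in counts ERH minus SAFB was 0.13 for mir-101b, 0.46 for mir-101a and 0.59 for mir-101c.

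At an adjusted p under 0.05, 153 of the 273 tested entries (56.0%) were called for SAFB against control, 147 (53.8%) for ERH against control and 108 (39.6%) for ERH against SAFB. All 3 mir-101 entries were among the calls in both comparisons with control, and mir-101b was for ERH against SAFB. Since the entries were picked on these values, nothing is read from those calls. They also depended on the setting: with spike-in scaling, mir-101a and mir-101c in ERH cells were still called against control, while mir-101b in ERH cells and all 3 entries in SAFB cells were not. mir-101b in SAFB cells was also not called with DESeq2 size factors, with DESeq2's test or with no filter on low counts. For ERH against SAFB, none of the 3 was called with spike-in scaling and all 3 were with total counts. Over all tested entries, the 6 libraries of each group did not overlap for 36.6% of entries between SAFB and control, 37.4% between ERH and control and 20.5% between ERH and SAFB. mir-101a was such an entry in the first comparison, mir-101b and mir-101c in the second and mir-101b in the third. The comparisons of SAFB and of ERH with control share their control libraries, so the values are set side by side without a test of their likeness.

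The directions against control were the same in each batch. For mir-101a, SAFB minus control was 0.46, 0.35 and 0.47 on the log2 scale in batches 1, 2 and 3, and ERH minus control was 0.42, 0.24 and 0.29. For mir-101b the same values were -0.20, -0.13 and -0.19 for SAFB, and -0.54, -0.62 and -0.66 for ERH. For mir-101c they were 0.47, 0.47 and 0.65 for SAFB, and 0.58, 0.65 and 0.54 for ERH. Comparing each of the 2 knockout populations with each of the 2 control populations likewise gave 1 direction for each entry. Those 4 differences ran from 0.30 to 0.55 for mir-101a in SAFB and from 0.27 to 0.36 in ERH cells. They ran from -0.24 to -0.11 for mir-101b in SAFB and from -0.66 to -0.55 in ERH cells, and for mir-101c from 0.40 to 0.66 and from 0.49 to 0.69. The smallest of these shifts, mir-101b in SAFB cells, was -0.033 in a fit without the SAFB guide 1 population. The median of all 273 entries was 0.13 in that fit, against 0.0083 with all libraries. With 1 library left out at a time it ran from -0.21 to -0.083, and it was among the calls in 8 of the 18 fits.

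The choice of scaling moved all entries of a comparison together. Against TMM, the median of all 273 entries shifted by 0.30 for ERH minus control with total counts and by 0.29 with spike-in counts, and by -0.24 for SAFB minus control with spike-in counts. mir-101a and mir-101c stayed above control and mir-101b below it in both knockouts under TMM, DESeq2 size factors, total counts and spike-in counts. Taken relative to the median entry of the same setting, mir-101a was 0.39 to 0.42 higher in SAFB and 0.38 to 0.39 higher in ERH cells over the 4 scalings. mir-101b was at -0.22 to -0.18 in SAFB and -0.55 to -0.54 in ERH cells on the same scale, and mir-101c at 0.53 and at 0.65 to 0.66. ERH minus SAFB did depend on the scaling: for mir-101a it was 0.16 with total counts and 0.46 with spike-in counts, and for mir-101b it was 0.13 with spike-in counts, against negative values under TMM. In bulk RNA, a change in the amount of a miRNA per cell and a change in the make-up of a polyclonal population cannot be told apart.

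**Figure D2:**
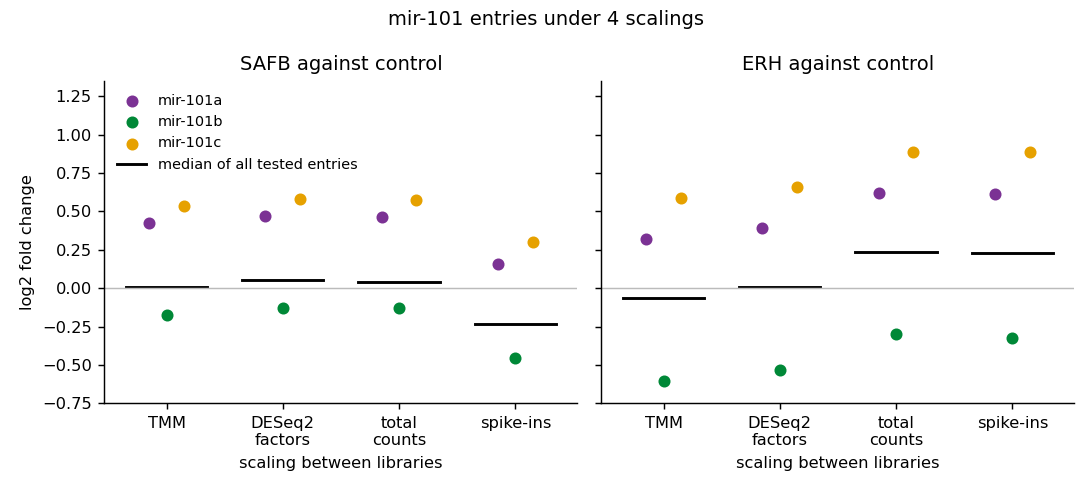
Log2 fold change of the 3 mir-101 entries against control under 4 ways of scaling the libraries; points are the entries and black bars the median of the 273 tested entries. The entries and the median shift together, and mir-101a and mir-101c lie above the median and mir-101b below it under each scaling.

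The ratio of mir-101b to mir-101a within a library needs no scaling. Its log2 value in control libraries was 0.46 in the lowest, 0.56 in the median and 0.60 in the highest, a mean of 0.54 ± 0.056 (SD, n = 6). In SAFB libraries it was -0.17, -0.085 and 0.11, a mean of -0.062 ± 0.11, and in ERH libraries -0.54, -0.36 and -0.25, a mean of -0.38 ± 0.11 (both SD, n = 6). The 3 genotypes did not overlap on this measure. The entries were picked for opposite differences from control, which builds a shift of this ratio in the knockouts into the choice. The share of other pairs whose ratios separate the genotypes was not counted, so the separation is a description. Put as a share, mir-101b made up 59.2% ± 0.944 of the mir-101a and mir-101b counts of control libraries, 48.9% ± 1.91 of those with SAFB guides and 43.4% ± 1.91 of those with ERH guides (SD, n = 6). The 95% Wilson intervals of these shares in single libraries extended 0.335 to 0.419 percentage points to either side, which covers counting error only and was smaller than the spread between libraries. The mean log2 ratio was lower than in control by -0.60 in SAFB and by -0.92 in ERH cells, and ERH minus SAFB was -0.32. Within batches 1, 2 and 3 the SAFB libraries differed from control by -0.66, -0.48 and -0.65, and the ERH libraries by -0.95, -0.86 and -0.95. Within the same batches ERH minus SAFB was -0.29, -0.38 and -0.29.

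**Figure D3:**
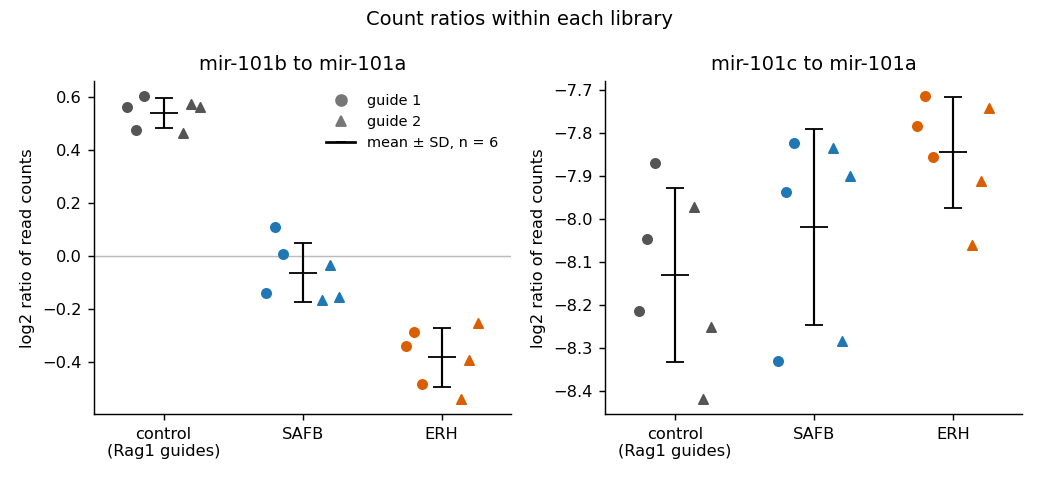
Log2 ratio of read counts within each library, mir-101b to mir-101a on the left and mir-101c to mir-101a on the right, by genotype; circles are guide 1, triangles guide 2, and bars the mean ± SD of 6 libraries. The mir-101b ratio, of a pair picked for its opposite differences from control, separates the 3 genotypes without overlap, while the mir-101c ratios overlap between all 3.

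The ratio of mir-101c to mir-101a differed less between genotypes. On the log2 scale the control libraries had -8.13 ± 0.20, the SAFB libraries -8.02 ± 0.23 and the ERH libraries -7.85 ± 0.13 (SD, n = 6), with overlap between all 3 genotypes. As a share of the mir-101a and mir-101c counts, mir-101c took 0.359% ± 0.0496, 0.388% ± 0.0581 and 0.434% ± 0.0374 (SD, n = 6). The control library with the fewest mir-101c counts, 64, had a share of 0.291%, with a 95% Wilson interval of 0.228% to 0.372% that covers counting error only. With mir-101c reads counted as mir-101a, a choice made after seeing the sequences, mir-101a stood at 0.43 for SAFB and 0.33 for ERH minus control, little moved.

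The sum of the 3 entries was 19080.1 ± 1366.9 CPM in control libraries, against 20482 ± 1286 CPM after SAFB loss and 17173 ± 1793 CPM after ERH loss (SD, n = 6), and the ranges of the 3 genotypes overlapped. As a share of all miRNA counts it was 1.76% ± 0.0979, 1.94% ± 0.0891 and 1.95% ± 0.144. Per 1000 spike-in counts it was 7692 ± 2362, 6818 ± 904 and 8456 ± 2918, where the spread between libraries was wide.

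The guides of a genotype give a comparison that the choice of entries did not use. For mir-101a, the control libraries of guide 1 had 6975, 8087 and 7511 CPM and those of guide 2 had 8592, 8292 and 7181 CPM in batches 1, 2 and 3. Guide 2 minus guide 1 was 0.092 on the log2 scale (SE 0.11) with an adjusted p of 0.969 in edgeR's quasi-likelihood test over all 273 entries. The SAFB libraries of guide 1 had 10041, 9583 and 9936 CPM and those of guide 2 had 11325, 11413 and 10344 CPM. These populations did not overlap, but the difference of 0.16 (SE 0.11) did not pass the edgeR test, with an adjusted p of 0.872. The share of all tested entries without overlap between these guides was not counted, so nothing is read from that separation. The ERH libraries of guide 1 had 9111, 9549 and 10350 CPM and those of guide 2 had 11717, 9769 and 7785 CPM, the widest spread of mir-101a within a population. The difference between their means was 0.013 (SE 0.11) with an edgeR adjusted p of 0.991.

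For mir-101b the guides overlapped in every genotype. In control libraries guide 1 gave 10292, 11226 and 11397 CPM and guide 2 gave 11851, 12323 and 10584 CPM, a difference of 0.079 (SE 0.094) with an edgeR adjusted p of 0.969. In SAFB libraries guide 1 gave 9127, 10348 and 9988 CPM and guide 2 gave 10087, 11155 and 9300.5 CPM, a difference of 0.052 (SE 0.094) with an edgeR adjusted p of 0.919. In ERH libraries guide 1 gave 7201, 7834 and 7408 CPM and guide 2 gave 8066, 7452 and 6543 CPM, a difference of -0.025 (SE 0.094) with an edgeR adjusted p of 0.991. mir-101c differed between guides by -0.075 (SE 0.20), 0.18 (SE 0.20) and -0.12 (SE 0.20) in control, SAFB and ERH cells, with edgeR adjusted p of 0.969, 0.901 and 0.991. A p that misses the threshold does not show that the populations were alike, and the SE bounds what could be seen.

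Over all tested entries, guide 2 against guide 1 gave 0 calls (0.0%) in control, 0 (0.0%) in SAFB and 1 (0.366%) in ERH cells at an adjusted p under 0.05, the same numbers with edgeR and with DESeq2. The entry called in ERH cells was mir-218. At an unadjusted p under 0.05 edgeR gave 7 (2.56%), 10 (3.66%) and 18 (6.59%) of 273. With spike-in scaling in place of TMM, the guide differences of mir-101a and mir-101b were larger in control and ERH cells, at 0.75 and 0.74 in control and 0.66 and 0.60 in ERH cells. In that setting 96 entries were called for the control guides and 110 for those of ERH, so the shift was shared by many miRNAs.

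Between guides the ratio of mir-101b to mir-101a differed by -0.014 in control, -0.11 in SAFB and -0.024 in ERH cells on the log2 scale. Exact two-sided permutation tests of 3 against 3 libraries, which cannot go below p = 0.1, gave p = 0.7, 0.2 and 0.8, or 0.8, 0.6 and 0.8 after adjustment over the 3 genotypes. For the ratio of mir-101c to mir-101a the guide differences were -0.17, 0.023 and -0.12, with exact p = 0.4, 0.8 and 0.3, or 0.6, 0.8 and 0.6 adjusted. With 3 libraries a guide these tests could not have passed a threshold of 0.05, so they do not show that the guides were alike.

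Across the 18 libraries the log2 CPM of mir-101a and mir-101b had a Pearson r of -0.24, and after subtraction of the mean of each population the r was 0.74. The main entries thus varied together among libraries of 1 population, and apart between each knockout and control. Between ERH and SAFB cells both had negative differences under TMM, at -0.10 for mir-101a and -0.43 for mir-101b. For mir-101a and mir-101c the same values were 0.78 and 0.45, and for mir-101b and mir-101c -0.52 and 0.40. All points share their library, its depth and its scaling, so these are descriptions.

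The miRNAs most like each entry were sought among the 113 or 114 other tested entries of at least 100 mean CPM, by Pearson r of log2 CPM over the 18 libraries. For mir-101a the first 5 were mir-28a (r = 0.83), mir-3968 (0.74), mir-128 (0.73), mir-10b (0.73) and mir-185 (0.72). After subtraction of population means their r with mir-101a lay between -0.12 and 0.34. These miRNAs shared with mir-101a a higher level in both knockouts, a difference that the r over all libraries includes. mir-28a averaged 119 CPM in control libraries, 224 CPM with SAFB lost and 200 CPM with ERH lost. mir-128, a miRNA best known from neurons, averaged 2026, 2476 and 2428 CPM in that order. mir-3968 and mir-10b averaged 88.9 and 8.28 CPM in control libraries, so they became candidates through their levels in the knockout libraries.

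For mir-101b the closest were let-7i (r = 0.93), mir-19a (0.92), mir-30e (0.91), mir-532 (0.89) and let-7j (0.87). Here the likeness to let-7i and mir-30e was also present within populations, with r = 0.75 for each, against 0.60 for let-7j, 0.45 for mir-19a and 0.16 for mir-532. let-7j was at 0.040 on the log2 scale for SAFB and -0.25 for ERH against control, so that its SAFB value had the opposite sign to that of mir-101b. mir-19a, a member of the mir-17-92 polycistron, had much larger differences than mir-101b, at 7459 CPM in control libraries, 3678 CPM with SAFB lost and 1660 CPM with ERH lost. let-7i, at 72810 CPM in control and 61372.5 CPM in ERH libraries, and mir-30e, at 16046 and 13574 CPM, had smaller ones.

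For mir-101c the closest were mir-10b (r = 0.84), mir-10a (0.81), mir-218 (0.80), mir-101a (0.78) and mir-148a (0.78). Within populations the r was highest for mir-101a, 0.45, and between -0.22 and 0.38 for the others. mir-10a, from a Hox gene cluster, had far larger differences than mir-101c, at 3.46 on the log2 scale for SAFB and 5.00 for ERH against control. In control libraries mir-10b, mir-10a, mir-218 and mir-148a each averaged under 100 CPM, so they became candidates through their levels in the knockout libraries. Their place among the closest therefore rests in part on the genotype difference itself. Candidates for mir-101c include entries of very different size of change, and the r over all libraries includes the differences between genotypes.

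Other miRNAs known to repress Ezh2 form a list of 14 entries, of which 12 were tested, and mir-214 and mir-124 had too few counts, at most 1 and 6. For SAFB against control, 2 of the 12 were higher, 6 lower and 4 not called by edgeR, with a median log2 fold change of -0.16, beside 84 higher and 69 lower with a median of 0.0083 over all 273. For ERH against control, 1 was higher, 9 lower and 2 not called, with a median of -0.31, beside 72 higher and 75 lower with a median of -0.061 over all. These counts depended on the scaling. For ERH against control, total counts gave 2 higher, 2 lower and 8 not called, beside 108 higher and 33 lower over all, and spike-in counts gave 1, 2 and 9, beside 72 and 19. For SAFB against control, total counts gave 2, 6 and 4, beside 90 and 66, and spike-in counts gave 0, 3 and 9, beside 44 and 58. The median of the list lay below the median of all entries by -0.19 to -0.16 for SAFB and -0.25 for ERH under each of the 4 scalings. Most of the list is the let-7 group, whose close sequences may share reads. mir-98, an X-linked relative of let-7, fell by 2.39 on the log2 scale in SAFB cells and fell by 2.81 in ERH cells. let-7f, the most abundant of the list in control, fell by 0.68 in SAFB and fell by 0.83 in ERH cells, whereas let-7e, which lies in a cluster with mir-99b and mir-125a, rose by 0.48 and 0.74, the first of which was not called with spike-in counts. Summed over the list, the level was 237794 to 258473 CPM of the library total in control, 209274 to 221073 in SAFB and 220912 to 234556 in ERH libraries.

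mir-26a and mir-26b, the best known of these next to miR-101, are also a pair of paralogs. mir-26a rose by 0.51 (SE 0.088) in SAFB cells, with an edgeR adjusted p of 3.7e-05, and was at 0.16 (SE 0.088) in ERH cells, with an adjusted p of 0.148. mir-26b fell by 0.22 (SE 0.061) in SAFB cells, with an adjusted p of 0.0032, and fell by 0.36 (SE 0.061) in ERH cells, with an adjusted p of 2.6e-05. With spike-in counts neither was called in either knockout, and with DESeq2 size factors and with total counts mir-26a was called higher in ERH cells, at 0.23 and 0.46. With total counts mir-26b was not called there, at -0.056. In SAFB cells the a member of this pair was above and the b member below control, as in the mir-101 pair. The p-values of mir-26a and mir-26b take the 6 libraries of a genotype as independent, though they come from 2 populations. The list was also chosen with earlier results of these data known.

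The miRNAs with a start close to that of miR-101 were at low levels. Of the 5 listed, mir-144, mir-139 and mir-582 had at most 2, 8 and 12 counts in a library and were not tested. mir-199a, at 31 to 83 counts, and mir-199b, at 32 to 91 counts, were tested and not called in either knockout under TMM, and with total counts mir-199b was called higher in ERH cells, at 0.61.

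Pairs of entries whose names differ in the last letter put the split of mir-101a and mir-101b beside others. Among entries of at least 100 mean CPM there were 63 such pairs from 17 names. Entries could reach that mean through the knockout libraries, as mir-10a, mir-10b, mir-148a and let-7e did, each under 100 CPM in control libraries. In SAFB cells 26 of the 63 had opposite signs and in 8 both members were called in opposite directions, and in ERH cells the numbers were 17 and 12. The let-7 names made up 36 of the 63 pairs, and 4 of the 8 and 8 of the 12. let-7e was a member of each of those let-7 pairs called in opposite directions, so they are not separate cases. The mean of let-7e was 83.4 CPM for control, 116 CPM for SAFB and 139 CPM for ERH cells. Those pairs thus entered the set through its knockout levels. The share of opposite calls among pairs of unrelated names was not counted, so the counts do not show that paralogs split often. The pairs called in opposite directions depended on the scaling: with total counts there were 8 in SAFB and 3 in ERH cells, and with spike-in counts 0 and 1. So did the pairs with opposite signs, at 26 in SAFB and 28 in ERH cells with total counts, and 16 and 28 with spike-in counts. The absolute difference in log2 fold change within the mir-101a and mir-101b pair was 0.60 in SAFB and 0.93 in ERH cells, where the median pair had 0.38 and 0.20. In 18 of the 63 pairs the difference was larger than in the mir-101 pair for SAFB, and in 17 for ERH. One of these in both knockouts was mir-148a and mir-148b, at 3.35 and -0.21 in SAFB and 4.75 and -0.069 in ERH cells. Under TMM it was also among the pairs called in opposite directions in SAFB cells, but not in ERH cells. Over the 27 pairs outside the let-7 names the median was 0.53 in SAFB and 0.33 in ERH cells, and 11 and 9 of the 27 were wider. Pairs share members and can share reads, and the mir-101 pair was chosen for its split, so this is a description. In the pair of mir-181a and mir-181b, miRNAs of lymphoid cells, the values were 0.58 and -2.56 in SAFB and 0.40 and -0.63 in ERH cells. In the pair of mir-30a and mir-30e they were 1.22 and -0.11 in SAFB and 1.99 and -0.24 in ERH cells. Under TMM the mir-181a and mir-181b pair was called in opposite directions in both knockouts, and the mir-30a and mir-30e pair in ERH cells only. Under TMM the mir-101 pair was thus neither alone in its split nor the widest.

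**Figure D4:**
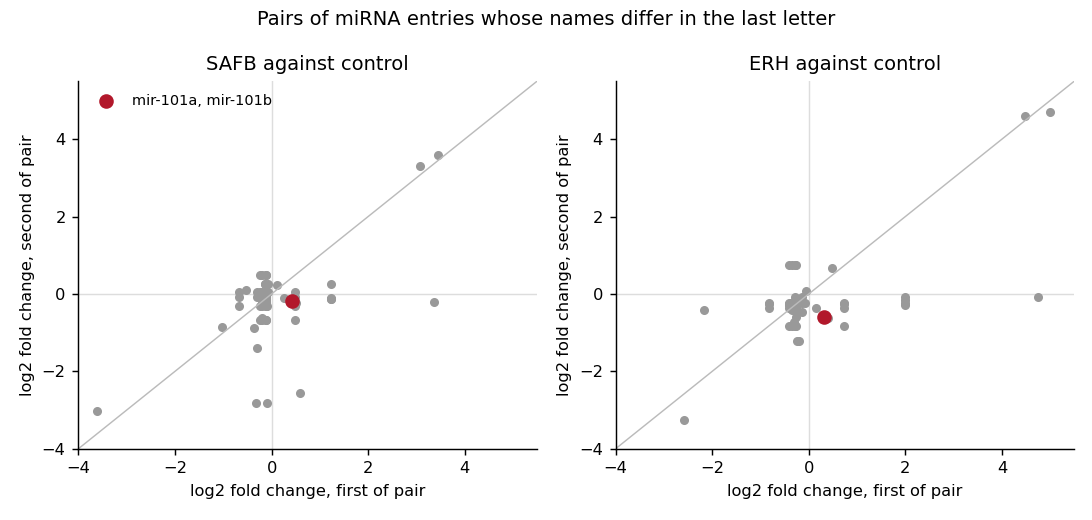
Log2 fold change against control of the first and second member of each of 63 pairs of entries with names that differ in the last letter, in SAFB (left) and ERH cells (right); the diagonal marks equal values, and the red point is mir-101a and mir-101b. The red point lies in the lower right quadrant in both panels, at 0.43 and -0.17 in SAFB and 0.32 and -0.60 in ERH cells.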

How the data were processed

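The authors deposited raw read counts, in whole numbers, of 1006 miRNA entries and 4 spike-ins. Per the labels' protocols, spike-in RNAs were added to total RNA and libraries were made with a QIAseq miRNA kit. Per the submitters' processing notes SAMtools was used. The aligner, counter, genome build, use of molecular identifiers and handling of reads that fit several entries are not given in the sources used here. Spike-ins entered neither library sizes nor tests.

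Counts were fitted with edgeR 4.0.16 (quasi-likelihood test, R 4.3.3, limma 3.58.1) over all 18 libraries, with TMM scaling and filterByExpr by population (minimum count 10), which kept 273 entries. Genotype comparisons had 1 mean per genotype and guide comparisons 1 mean per population. p-values were adjusted by Benjamini-Hochberg over all 273. DESeq2 1.42.0 was an alternative. Log2 CPM for correlations had a prior count of 2, and ratios within a library had no pseudocount. The edgeR step was tested on simulated data. Hairpins were folded with RNAfold 2.7.2.

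The labels number the batch of each library, and libraries were paired across populations by that label alone. Over 153 entries of at least 100 mean counts, deviations from population means had a mean r of 0.094 over the 45 same-batch pairs, a weak likeness. No 2 libraries of a population agreed within counting noise (chi-square per degree of freedom 27.5 to 157), which does not tell separate cultures from repeat preparations. Nothing says that libraries of a population came from separate cultures, so p-values may measure technical spread.

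The mir-101 entries, the marker, Ezh2 and near-start lists and the tests were chosen with earlier results of these data known. Named miRNAs are the 3 entries, the 5 most correlated with each, and members of the lists and letter pairs. Markers mir-1, mir-126, mir-142 and mir-145 were read at the entries mir-1a, mir-126a, mir-142a and mir-145a.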

Additional observations from a re-analysis of the deposited data

How the results depend on the processing

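Alternatives were DESeq2 size factors, total counts, spike-in counts, DESeq2's test, no filter on low counts, a batch block, leaving out each library or each population, and mir-101c reads counted with mir-101a. With the labelled batch number as a replicate block, the pairing moved no call of a mir-101 entry: SAFB minus control was 0.43, -0.17 and 0.54 and ERH minus control 0.32, -0.60 and 0.59 for mir-101a, mir-101b and mir-101c, and 155 and 146 entries were called. With total counts, mir-101a was 0.62 and mir-101b -0.30 and mir-101c 0.89 for ERH minus control. ERH minus SAFB was then 0.16, -0.17 and 0.31, and the guide difference of mir-101b turned to -0.020 in SAFB and 0.0051 in ERH cells. With spike-in counts, SAFB minus control was 0.15 for mir-101a and -0.46 for mir-101b. ERH minus control was 0.62, -0.32 and 0.89, and ERH minus SAFB 0.46, 0.13 and 0.59 in the same order. Guide 2 minus guide 1 was 0.75, 0.74 and 0.57 in control and 0.66, 0.60 and 0.51 in ERH cells. Of these, mir-101a and mir-101b passed edgeR's test (adjusted p of 0.024 for both in control, and 0.027 and 0.028 in ERH cells), against 0.733 to 1 over the other settings. Calls were then 91 for ERH minus control, 96 between control guides and 110 between ERH guides. With no filter 4 were called between ERH guides.

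Without the SAFB guide 1 population, SAFB minus control was 0.62 for mir-101a and -0.033 for mir-101b, and without either SAFB population the ERH guide difference of mir-101a was -0.0080. Leaving out 1 library at a time kept the sign of each entry against control: 0.40 to 0.51 and 0.26 to 0.42 for mir-101a, -0.21 to -0.083 and -0.63 to -0.53 for mir-101b, 0.51 to 0.67 and 0.56 to 0.68 for mir-101c, SAFB before ERH. Guide differences near 0 changed sign, between -0.14 and 0.15 for mir-101a in ERH cells, and for mir-101b between -0.019 and 0.091 in SAFB and -0.096 and 0.048 in ERH cells; 1 to 2 entries were called between ERH guides. ERH minus SAFB of mir-101c ran from -0.030 to 0.092. The causes were not tested. The depth limits mir-101c, whose counts were under 200 in each library.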
